A study of Mus musculus with 27 samples.

Results

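Undifferentiated mouse induced pluripotent stem (iPS) cells of the line H9, which the labels mark 3F for the 3 factors used to make it, were compared with undifferentiated cells of the embryonic stem (ES) cell line R1. All 3 day 0 arrays of 3F and all 3 day 0 arrays of R1 were taken, 6 of the 27 arrays of the series. The other arrays held the same lines at days 5 and 11 of differentiation and a second iPS line, 19BL, made with 4 factors and called 4F here. Expression was measured on Affymetrix whole-genome mouse arrays and is given as log2 RMA signal, in which a difference of 1 is a 2-fold difference. Differences are 3F minus R1 with the standard error of the fit after ±. Where a gene is said to have averaged a level in a group, ± gives the standard deviation (SD) of its 3 arrays instead. The fit takes its spread from within the groups of all 27 arrays, days 5 and 11 included. A gene is said to have been called, or to have been higher or lower, only at an adjusted p under 0.05 and a difference of at least 2-fold. Both lines had been grown on mitomycin-inactivated feeder cells in medium with leukaemia inhibitory factor (LIF), and total RNA was used. The identity of the factors, the donor cells, and the strain of either line are not given in the sources used here. Each line is a single line, so line and cell type (iPS or ES) cannot be told apart. The labels call the arrays biological replicates without naming separate cultures, so p values measure only the spread between these samples.

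Pluripotent cells are held in the undifferentiated state by a network around the transcription factors Oct4 (Pou5f1), Sox2 and Nanog, and in mouse cells LIF supports it through the kinase JAK and the factor STAT3. Reprogramming turns a somatic cell into an iPS cell by forced expression of such factors, after which the cell's own genes take over. DNA methylation, imprinted genes and germ line genes are places where pluripotent lines are known to vary. Feeder cells are growth-arrested fibroblasts that stay in the dish, and their RNA can be harvested with that of the stem cells. In bulk samples, fewer cells of a type and less RNA per cell cannot be told apart.

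Promoter windows of 5 genes that differed between the lines are shown here, from 250 bases before to 50 bases after the RefSeq gene start on build GRCm38.p6, because the groups described further on (the X-linked germ line genes and the interferon-induced genes) are known to respond to such sequences. In Rhox5 (chrX:37754358-37754657, plus strand) and Fmr1nb (chrX:68761589-68761888, plus strand) capitals mark CG, the dinucleotide at which mouse DNA is methylated. In Gbp2b (chr3:142594597-142594896, plus strand), Oas1a (chr5:120907476-120907775, minus strand) and Oasl2 (chr5:114896684-114896983, plus strand) capitals mark GAAANNGAAA on either strand, the core of the interferon-stimulated response element, with overlapping matches joined.
Rhox5: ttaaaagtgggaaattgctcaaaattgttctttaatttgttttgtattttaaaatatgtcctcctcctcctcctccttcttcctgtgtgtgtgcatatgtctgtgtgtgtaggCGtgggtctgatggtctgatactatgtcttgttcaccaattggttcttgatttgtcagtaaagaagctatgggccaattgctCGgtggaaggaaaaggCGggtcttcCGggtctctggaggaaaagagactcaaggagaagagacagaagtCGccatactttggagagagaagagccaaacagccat
Fmr1nb: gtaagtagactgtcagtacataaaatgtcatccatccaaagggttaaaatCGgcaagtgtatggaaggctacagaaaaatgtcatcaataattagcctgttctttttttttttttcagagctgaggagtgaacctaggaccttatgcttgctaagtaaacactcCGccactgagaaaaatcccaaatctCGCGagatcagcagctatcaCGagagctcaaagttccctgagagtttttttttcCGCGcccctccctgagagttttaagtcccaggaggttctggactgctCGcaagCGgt
Gbp2b: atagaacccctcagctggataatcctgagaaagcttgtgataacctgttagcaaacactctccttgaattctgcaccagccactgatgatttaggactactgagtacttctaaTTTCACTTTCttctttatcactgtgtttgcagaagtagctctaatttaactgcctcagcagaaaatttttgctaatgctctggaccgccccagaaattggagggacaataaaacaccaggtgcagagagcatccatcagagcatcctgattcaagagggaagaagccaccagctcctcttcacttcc
Oas1a: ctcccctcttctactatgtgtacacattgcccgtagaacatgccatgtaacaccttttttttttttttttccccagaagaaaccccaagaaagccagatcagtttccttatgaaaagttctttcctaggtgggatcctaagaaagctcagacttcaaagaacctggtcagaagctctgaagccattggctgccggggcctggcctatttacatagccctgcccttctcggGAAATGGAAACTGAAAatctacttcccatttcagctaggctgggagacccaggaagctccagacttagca
Oasl2: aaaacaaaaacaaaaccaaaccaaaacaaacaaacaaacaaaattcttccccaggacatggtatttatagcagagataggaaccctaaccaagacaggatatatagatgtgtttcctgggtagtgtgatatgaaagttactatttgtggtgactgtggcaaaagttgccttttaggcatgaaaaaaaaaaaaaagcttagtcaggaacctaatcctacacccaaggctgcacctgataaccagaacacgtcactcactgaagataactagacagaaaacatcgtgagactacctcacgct
The Rhox5 window held 5 CG and the Fmr1nb window 9, and 94.6% of 32851 promoter windows of the same length held at least 1 CG (median 7). GAAANNGAAA was found 1 time in Gbp2b, 2 times in Oas1a with overlap and 0 times in Oasl2, and 3.44% of the windows held it. The window of Gbp3, a gene lower in 3F with 2 listed starts, was also searched at the first start. It is not shown and held 2 matches with overlap. Such a match describes the letters only.

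Of 18193 genes, 562 (3.09%) were called between 3F and R1 at day 0, 402 higher (2.21%) and 160 lower (0.879%) in 3F. The limma fit gave an unadjusted p under 0.05 to 2518 genes higher and 1634 genes lower. The plot of mean levels shows most genes on the diagonal and more genes called higher than lower in 3F. R1 replicate 1 stood apart: the SD of the log2 difference over genes was 0.46 and 0.48 between it and the other R1 arrays, 0.29 between those, and 0.20 to 0.25 among the 3F arrays. Without that array 867 genes were called higher and 312 lower. There were 114 and 79 without R1 replicate 2, 176 and 128 without R1 replicate 3, 230 and 114 without 3F replicate 1, and 117 and 87 without 3F replicate 3. In every fit that left out 1 of the 6 arrays, 85 of the higher and 64 of the lower genes were called again. The 3' minus 5' signal of Actb and Gapdh, which grows as RNA is cut short, was 1.05, 1.17 and 1.06 in 3F and 1.18, 1.48 and 1.70 in R1 (log2). With this index as a covariate, 114 genes were called higher and 79 lower, and 99 and 68 of these were among the genes called without it. Centring the arrays on their medians gave 308 higher and 230 lower and moved the median of all genes to -0.12. Averaging the probe sets of a gene gave 204 and 127, quantile normalization 277 and 171. The share of higher genes was 71.5% as first fitted and 57.3%, 61.6% and 61.8% under these settings.

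**Figure D1:**
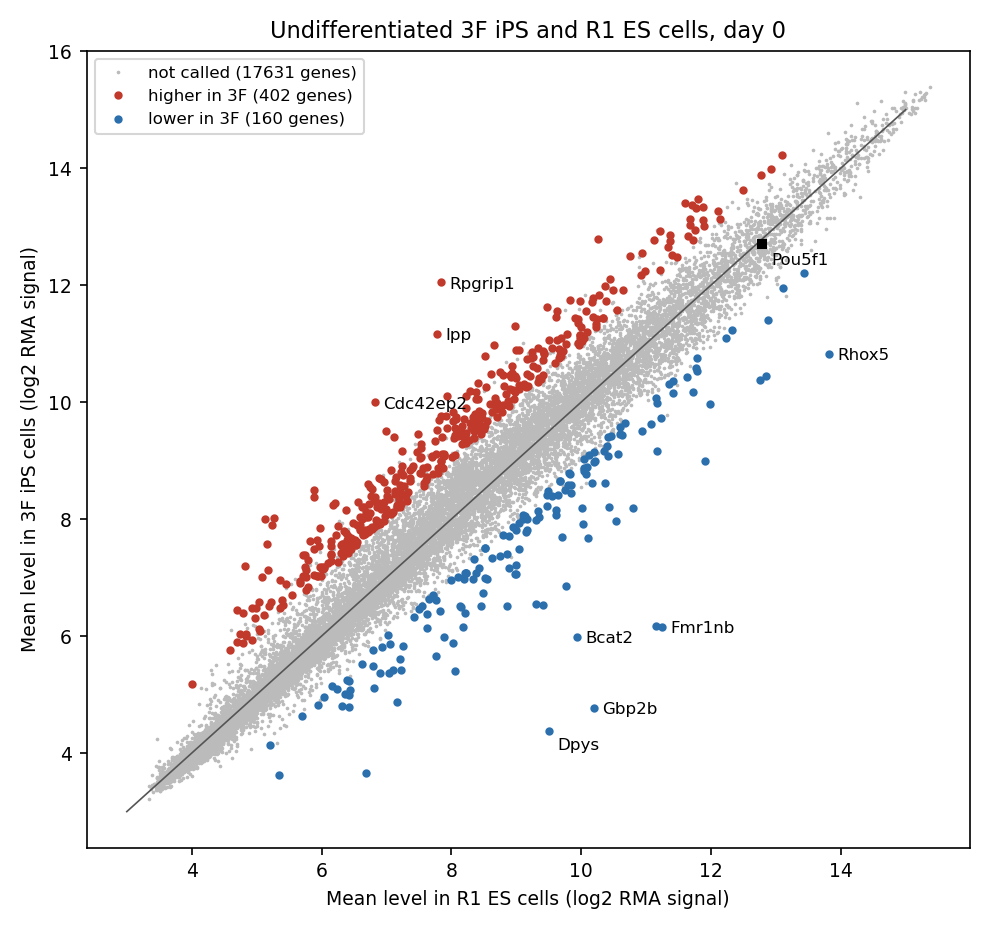
Mean log2 RMA signal of each of 18193 genes in undifferentiated 3F iPS cells (vertical axis) and R1 ES cells (horizontal axis), each a mean of 3 arrays. Red points are the 402 genes called higher and blue points the 160 called lower in 3F, the line marks equal levels, and the black square is Pou5f1, which lies on it.

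The pluripotency network was highly expressed in both lines, as the label of undifferentiated pluripotent cells implies. None of the 16 measured core pluripotency genes was called, against 3.09% of all genes, and their median difference was 0.002, against -0.004 over all genes. Pou5f1 (Oct4) had signals of 12.73, 12.86 and 12.50 in 3F and 12.79, 12.98 and 12.57 in R1. Sox2, its binding partner, had 12.91, 13.04 and 12.92 in 3F and 13.28, 12.87 and 12.57 in R1. Nanog, a homeodomain factor, had 13.06, 12.91 and 13.04 in 3F and 13.59, 12.96 and 12.52 in R1. The groups overlapped for all 3 genes, and the 95% intervals of the difference were -1.16 to 0.99 for Pou5f1, -0.86 to 0.96 for Sox2 and -1.02 to 0.97 for Nanog, so differences up to about 2-fold in either direction were not resolved. The mean of the list was 12.05, 12.13 and 11.90 in 3F arrays and 12.25, 11.86 and 11.60 in R1 arrays, with R1 replicate 1 the highest of the 6, while array medians over all probe sets were 5.95 to 6.01. Lin28a, an RNA-binding protein that blocks let-7 maturation, differed by 0.39 ± 0.37 and Sall4, a zinc finger factor, by 0.45 ± 0.32, neither called.

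Genes of the naive state, in which mouse ES cells are normally kept, were not called either (0 of 23, median -0.17), against 3.09% of all genes. Of the 23 differences 8 were positive. The 5 largest were -1.34 for Fbxo15, -0.97 for Pecam1, -0.88 for Tbx3, -0.86 for Nr5a2 and 0.73 for Gbx2. Median centring called 2 genes of the list lower, and cyclic loess or the RNA index as a covariate 1. Without R1 replicate 1, 1 gene was called higher. Zfp42 (Rex1), a marker of that state, had 13.58, 13.60 and 13.39 in 3F and 13.96, 13.75 and 13.39 in R1. Esrrb, an orphan nuclear receptor of the network, had 8.03, 8.86 and 8.25 in 3F and 8.54, 8.25 and 8.11 in R1. These groups overlapped. Klf4 and Klf2, Krüppel-like factors of which Klf4 is a common reprogramming factor, differed by 0.10 ± 0.31 and -0.32 ± 0.43. The naive list as a whole averaged 10.23, 10.30 and 9.88 in 3F and 10.88, 10.24 and 9.91 in R1.

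Of 17 measured genes of the primed epiblast, the later state from which the germ layers arise, 1 was higher and 1 lower in 3F (median 0.51). Over all genes 2.21% were higher and 0.879% lower. Lef1, a nuclear partner of beta-catenin in Wnt signalling, had 9.84, 10.26 and 9.79 in 3F and 8.85, 8.54 and 8.39 in R1. All 3F arrays lay above all R1 arrays, at 1.37 ± 0.25 (limma adjusted p = 0.00248), and the call held in every fit that left out 1 array. Car4, a carbonic anhydrase, was lower at -1.57 ± 0.44. Without 3F replicate 1, 2 or 3 or R1 replicate 2 or 3, Car4 was not called (adjusted p up to 0.206). Fgf5, the classical primed marker, had 8.60, 8.45 and 8.66 in 3F and 9.09, 8.81 and 9.23 in R1 and was not called, nor was Dnmt3b, a de novo DNA methyltransferase, at 0.55 ± 0.33.

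Components of signalling pathways are given here pathway by pathway, against 2.21% higher and 0.879% lower over all genes. Of 36 Wnt genes 2 were higher, Lef1 and Dkk2, a secreted Wnt modulator. Dkk2 had 7.51, 7.70 and 8.42 in 3F and 6.46, 5.82 and 6.49 in R1, with no overlap, a difference of 1.62 ± 0.26, and the call held in every fit that left out 1 array, as did those of Gjb5, Irs1, Bmpr1b and Id4. Of 14 LIF and STAT3 response genes 1 was lower and 0 higher: Gjb5, a gap junction connexin, had 7.24, 7.21 and 7.17 in 3F and 9.44, 8.95 and 8.60 in R1. Every 3F array was below every R1 array, at -1.79 ± 0.23 (limma adjusted p = 5.29e-05). Irs1, the adaptor that passes the insulin and IGF receptor signal on, was the 1 higher gene of 16 in the IGF system, with 10.18, 9.72 and 10.43 in 3F and 8.80, 7.59 and 8.31 in R1 and a difference of 1.88 ± 0.28. Of 25 BMP and Id genes 3 were higher: Bmpr1b, a type I BMP receptor, at 1.5 ± 0.24, Id4, an inhibitor of basic helix-loop-helix factors, at 1.19 ± 0.24, and Grem1, a secreted BMP antagonist, at 1.29 ± 0.25. Without 3F replicate 3, Grem1 differed by 0.95, under the 2-fold minimum. Of 23 Nodal and TGF-beta genes 4 were higher, but 1 with the RNA index as a covariate and 1 with the probe sets of a gene averaged, which also left 1 of the BMP genes. Of the 23 differences 18 were positive. Nodal (-0.44), Lefty1 (-0.64), Lefty2 (-0.35), Tdgf1 (-0.22) and Gdf3 (-0.23), named after their values were seen, were negative and not called. Inhba, the subunit of activin A, had 12.63, 11.92 and 12.97 in 3F and 11.20, 10.26 and 10.81 in R1, without overlap, at 1.75 ± 0.33, and was called in every fit that left out 1 array. The receptor Tgfbr2, the ligand Tgfb3 and the latency protein Ltbp1 differed by 1.66 ± 0.39, 1.57 ± 0.32 and 1.67 ± 0.36. The call of Tgfbr2 was lost without 3F replicate 3 or R1 replicate 2 or 3 (adjusted p up to 0.122). Without 3F replicate 3 or R1 replicate 2, Tgfb3 was not called (adjusted p up to 0.0563). Ltbp1 lost its call without 3F replicate 3 or R1 replicate 2 (adjusted p up to 0.0886). In the FGF and ERK list (24 genes) the ligand Fgf7 was higher at 1.13 ± 0.25 and the ETS factor Etv4 lower at -1.13 ± 0.21. The call of Fgf7 was lost without 3F replicate 3 or R1 replicate 3 (adjusted p up to 0.0727). Without R1 replicate 1, Etv4 differed by -0.92, under the 2-fold minimum.

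Among the 15 largest falls in 3F were Dpys, Aass and Bcat2. Dpys, the dihydropyrimidinase that opens the ring of reduced uracil and thymine, had 4.67, 4.44 and 4.01 in 3F and 9.63, 9.70 and 9.18 in R1. Aass, which carries out the first steps of lysine degradation, had 6.42, 6.17 and 5.91 in 3F and 11.01, 11.62 and 10.82 in R1. Bcat2, the mitochondrial branched-chain aminotransferase, had 6.22, 6.01 and 5.73 in 3F and 10.18, 10.18 and 9.47 in R1. For each of them every 3F array was below every R1 array by a wide margin. The differences were -5.13 ± 0.28 for Dpys (limma adjusted p = 5.72e-11), -4.98 ± 0.37 for Aass (6.38e-09) and -3.95 ± 0.26 for Bcat2 (1.69e-09), and all were called in every fit that left out 1 array and with the RNA index as a covariate. The list of threonine, glycine and one-carbon metabolism (16 measured, median 0.01) also held Aass, although it belongs to lysine degradation. Aass was its 1 called gene, and the other 15 were not called.

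Germ line and meiosis genes were lower in 3F where they differed: 0 of 23 were higher and 4 lower, against 0.879% lower over all genes, with a median of -0.45. Of these 4, 3 were Rhox genes, homeobox genes of an X-linked cluster that is active in reproductive tissue and placenta and is known to be silenced by DNA methylation in mouse development. Rhox5 had 11.01, 10.96 and 10.49 in 3F and 13.77, 13.94 and 13.74 in R1. Rhox6 had 6.50, 6.67 and 6.47 in 3F and 8.93, 9.72 and 9.28 in R1. Rhox9 had 6.45, 6.59 and 6.52 in 3F and 8.50, 9.14 and 8.95 in R1. None of these groups overlapped. The differences were -2.99 ± 0.21, -2.76 ± 0.36 and -2.34 ± 0.30, all called in every fit that left out 1 array. The fourth gene, Sycp3, a component of the synaptonemal complex, was lower at -1.76 ± 0.43. Sycp3 lost its call without 3F replicate 1 or 3 or R1 replicate 2 or 3 (adjusted p up to 0.126). The mean of the germ line list was 7.04, 7.16 and 6.99 in 3F and 7.73, 7.90 and 7.69 in R1.

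Fmr1nb, Aurkc and Khdc3 were also among the 15 largest falls and are in none of the lists described here. Fmr1nb, an X-linked gene of testis and tumours, had 6.42, 6.15 and 5.90 in 3F and 10.99, 11.59 and 11.18 in R1. Aurkc, the Aurora kinase of meiosis, had 6.89, 6.80 and 6.87 in 3F and 8.91, 10.66 and 9.70 in R1. Khdc3 (Filia), part of the maternal complex of the egg and also made in ES cells, had 6.36, 6.86 and 6.39 in 3F and 9.53, 9.68 and 9.01 in R1. All 3F arrays lay below all R1 arrays for each, with differences of -5.09 ± 0.24, -2.90 ± 0.32 and -2.87 ± 0.38. The remaining large falls were Fam25c at -2.92 ± 0.32, the receptor Gprc5b at -2.66 ± 0.36, Aard at -2.62 ± 0.31, the transmembrane protein Tmem242 at -2.57 ± 0.31, the autophagy receptor Calcoco2 at -2.42 ± 0.26 and the kelch protein Klhl4 at -3.02 ± 0.79. The call of Klhl4 was lost without 3F replicate 1, 2 or 3 or R1 replicate 2 or 3 (adjusted p up to 0.143). The others were called in every fit that left out 1 array.

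**Figure D2:**
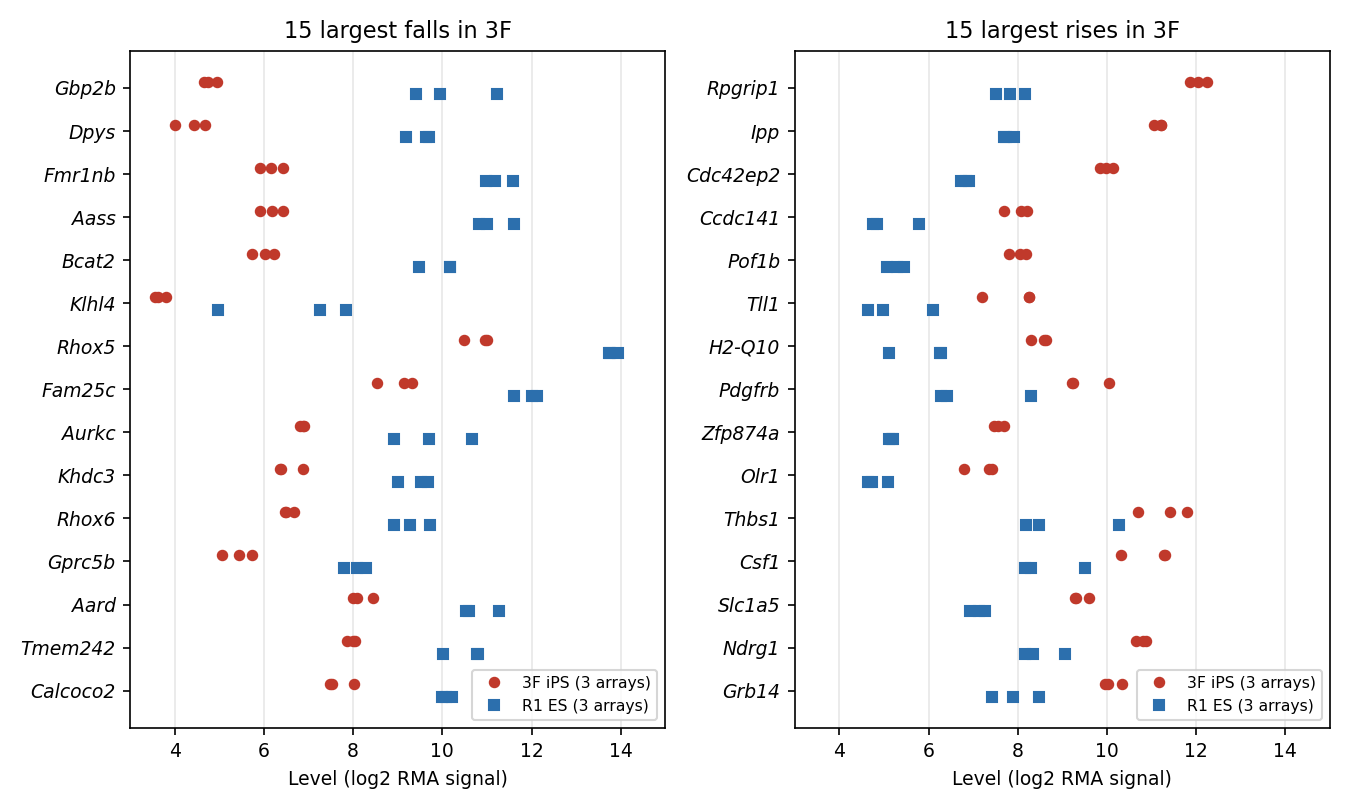
Log2 RMA signal in each array for the 15 largest falls (left panel) and 15 largest rises (right panel) in 3F at day 0 by the naming rule. Red circles are the 3 arrays of 3F and blue squares the 3 arrays of R1, and the groups of no gene overlap, since the rule required it.

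Interferon-related genes differed in both directions. Gbp2b, an interferon-induced guanylate-binding protein, had 4.74, 4.95 and 4.64 in 3F and 9.41, 9.95 and 11.22 in R1. The 3F arrays lay close to the lower end of the scale and all R1 arrays far above, a difference of -5.42 ± 0.60 (limma adjusted p = 6.44e-06). The 3F signals of Dpys lay there as well, and background limits how large such falls can be measured, so no order by size is read among them. Of 31 interferon-stimulated genes 1 was higher and 3 lower (median -0.10), against 2.21% higher and 0.879% lower over all genes. Oas1a, an oligoadenylate synthetase of the antiviral response, had 9.08, 8.50 and 8.29 in 3F and 10.05, 10.63 and 9.82 in R1. Oasl2, a related protein, had 6.85, 7.32 and 7.20 in 3F and 4.97, 5.35 and 5.23 in R1. The groups overlapped for neither gene, at -1.54 ± 0.23 for Oas1a and 1.94 ± 0.36 for Oasl2, so these related genes differed in opposite directions. The calls of Gbp2b, Oas1a and Oasl2 held in every fit that left out 1 array. Gbp3 and Xaf1 were lower at -1.25 ± 0.33 and -1.14 ± 0.23. Without 3F replicate 2 or 3 or R1 replicate 2 or 3, Gbp3 was not called (adjusted p up to 0.187). Without R1 replicate 1, Xaf1 differed by -0.97, under the 2-fold minimum. Among 16 genes of antigen presentation 2 were higher. H2-Q10, a secreted class I molecule, had 8.29, 8.64 and 8.58 in 3F and 5.11, 6.28 and 6.26 in R1, all 3F arrays above all R1 arrays, at 2.62 ± 0.31, called in every such fit. B2m, the light chain of class I molecules, was higher at 1.26 ± 0.31. The call of B2m was lost without 3F replicate 1 or 3 or R1 replicate 2 or 3 (adjusted p up to 0.116).

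The largest rise was Rpgrip1, a protein of the photoreceptor cilium, with 12.04, 12.24 and 11.86 in 3F and 8.17, 7.5 and 7.83 in R1. Ipp, a kelch protein whose transcription in mouse placenta starts in an IAP retroviral element, had 11.23, 11.21 and 11.05 in 3F and 7.70, 7.93 and 7.73 in R1. Cdc42ep2, an effector of the GTPase Cdc42, had 10.15, 9.98 and 9.85 in 3F and 6.91, 6.84 and 6.72 in R1. In each, the lowest 3F array was far above the highest R1 array. The differences were 4.21 ± 0.32 (limma adjusted p = 1.38e-08), 3.38 ± 0.25 (6.38e-09) and 3.17 ± 0.27 (9.52e-08). Slc1a5, a glutamine transporter, had 9.31, 9.60 and 9.28 in 3F and 7.28, 6.92 and 7.13 in R1, again without overlap, at 2.29 ± 0.15. Ndrg1 was the 1 higher gene of 25 in the hypoxia and glycolysis list, against 2.21% higher over all genes. It had 10.66, 10.88 and 10.81 in 3F and 9.05, 8.17 and 8.34 in R1 and a difference of 2.26 ± 0.36. The other large rises ran from 2.18 ± 0.29 for Grb14, an adaptor of the insulin receptor, to 2.87 ± 0.36 for Ccdc141. Between these lay the actin-binding protein Pof1b (2.75 ± 0.40), the metalloprotease Tll1 (2.67 ± 0.29), the zinc finger protein Zfp874a (2.40 ± 0.28) and the scavenger receptor Olr1 (2.37 ± 0.43). All genes named in this paragraph were called in every fit that left out 1 array. Rpgrip1 and Ccdc141 were not called when the probe sets of each gene were averaged.

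Of the 30 genes with the largest changes, 18 had 1 probe set. Of the 12 with several, 3 (Csf1, Ndrg1, Thbs1) had another probe set called in the same direction, and 0 had one called in the opposite direction. The 9 with none were Ccdc141, Dpys, Gprc5b, Grb14, Klhl4, Pdgfrb, Rpgrip1, Slc1a5 and Tmem242. The values of the 27 others therefore rest on a single called probe set. Gprc5b had a second probe set at 6.38 in 3F and 6.33 in R1 (means of 3), which differed by 0.05 ± 0.36, so its probe sets disagree. Those of Ccdc141 disagree as well: the 5 others differed by -0.08 to 0.51, against 2.87 for the one used. The second probe set of Pdgfrb differed by 1.08 ± 0.43 and was not called.

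Where fibroblast and feeder genes differed, they were higher in 3F: of 24 measured, 7 were higher and 0 lower, against 2.21% higher over all genes. All 24 differences were positive with a median of 1.57, and for 23 of 24 the arrays did not overlap, against 29.9% of all genes. The mean of the list was 10.29, 10.27 and 11.00 in 3F arrays and 9.68, 8.66 and 8.82 in R1 arrays. 3F replicate 3 was the highest of the 6 and R1 replicate 1 the highest of R1. Thy1, a surface protein of fibroblasts, had 10.98, 10.79 and 11.44 in 3F and 10.03, 9.40 and 9.45 in R1. It differed by 1.44 ± 0.21 (limma adjusted p = 1.57e-04) and was the 1 member called in every fit that left out 1 array. Col1a1 and Col3a1, the fibrillar collagens, had 10.03, 9.80 and 10.72 in 3F and 9.52, 7.72 and 8.28 in R1, and 11.11, 11.42 and 12.20 in 3F and 10.85, 9.18 and 9.23 in R1. Neither collagen was called, at 1.68 ± 0.63 (adjusted p = 0.109) and 1.83 ± 0.59 (0.0609). The others called were the receptor Pdgfrb (2.50 ± 0.66), Prrx1, a homeodomain factor of mesenchyme (1.85 ± 0.41), the protease Fap (1.24 ± 0.27), the crosslinking enzyme Lox (1.67 ± 0.50) and the collagens Col5a2 (1.79 ± 0.47) and Col6a3 (1.89 ± 0.56). Members beyond the 5 with the largest change and the fixed genes were named after their values were seen. The number of higher members was 16 without R1 replicate 1, 7 without 3F replicate 2, 3 without 3F replicate 1, 2 without R1 replicate 2 or R1 replicate 3, and 1 without 3F replicate 3 or with the RNA index as a covariate.

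Secreted and matrix genes that feeder fibroblasts also make were, where called, higher as well, against 2.21% higher over all genes. Of 30 feeder-type protease and inflammation genes 9 were higher and 0 lower (median 0.90), and the list averaged 9.44, 9.21 and 9.80 in 3F against 8.64, 8.55 and 8.56 in R1. Csf1, the macrophage colony-stimulating factor, had 11.27, 10.33 and 11.31 in 3F and 9.51, 8.17 and 8.31 in R1. Mmp13, a collagenase, had 9.34, 9.21 and 10.76 in 3F and 7.64, 8.23 and 7.64 in R1. Ptgs2, the inducible cyclooxygenase, had 12.27, 11.41 and 12.26 in 3F and 10.71, 9.94 and 10.45 in R1. For these 3 genes the arrays did not overlap, the differences were 2.31 ± 0.38, 1.93 ± 0.32 and 1.61 ± 0.29, and the calls held in every fit that left out 1 array. The 9 became 12 without R1 replicate 1, 5 without 3F replicate 1 or R1 replicate 3, and 3 without 3F replicate 3, without R1 replicate 2 or with the RNA index as a covariate. Of 28 extracellular matrix genes 13 were higher and 0 lower (median 1.06), among them the matricellular proteins Thbs1 (2.31 ± 0.55) and Tnc (2.17 ± 0.57) and the basement membrane chains Col4a1 (1.85 ± 0.42) and Col4a2 (1.90 ± 0.49). None of the 13 was called in every such fit: 16 matrix genes were called without R1 replicate 1, 11 without 3F replicate 2, 4 without 3F replicate 1, 3 without R1 replicate 3, and 0 without R1 replicate 2, without 3F replicate 3 or with the RNA index. Of 14 smooth muscle and myofibroblast genes 4 were higher (median 0.93), and 5 without R1 replicate 1, 3 without 3F replicate 2, 2 with cyclic loess, 1 with median centring or averaged probe sets, and 0 without any other array, with the index or with quantile normalization. Of 19 genes of mesenchymal transition and adhesion 3 were higher (Axl, Tgfbr2 and the integrin Itgav, median 0.92), with 9 without R1 replicate 1, 5 without 3F replicate 2, 3 without 3F replicate 1, 2 without R1 replicate 3, 1 without 3F replicate 3, and 0 without R1 replicate 2 or with the index. The part that the fibroblast list has in any other difference between the lines was not tested.

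**Figure D3:**
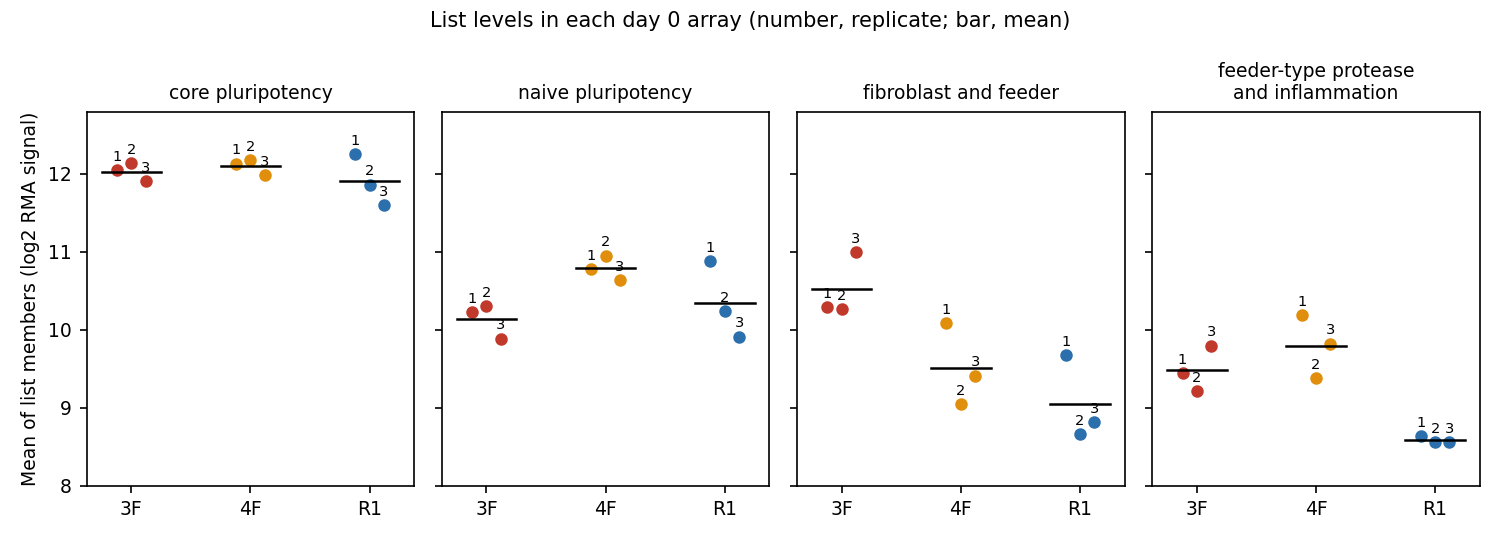
Mean log2 RMA signal of the members of 4 gene lists in each day 0 array of 3F iPS, 4F iPS and R1 ES cells, with the replicate number above each point and a bar at the mean of 3. The pluripotency lists overlap between 3F and R1, and both feeder lists lie higher in every 3F array than in any R1 array. In 4F, 3F and R1 the protease and inflammation list averaged 9.8, 9.5 and 8.6, and the fibroblast list 9.5, 10.5 and 9.1.

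Among markers of other cell types, 4 of 21 neural and neuroectoderm genes were higher and 0 lower (median 0.13), against 2.21% higher over all genes. With the RNA index as a covariate or with averaged probe sets 2 were higher. Of the 21 differences 12 were positive. The 17 members not called included Sox1 (-0.04), Sox3 (-0.37), Pax6 (-0.06) and Neurod1 (0.24), which were named after their values were seen. Map2, a microtubule-associated protein of dendrites, had 8.22, 8.13 and 8.46 in 3F and 6.79, 5.93 and 5.90 in R1, without overlap, at 2.06 ± 0.25 (limma adjusted p = 1.86e-05), and was called in every fit that left out 1 array. The others were the neurofilaments Nefl (1.71 ± 0.45) and Nefm (1.43 ± 0.30) and the adhesion molecule Ncam1 (1.28 ± 0.38). Without 3F replicate 1 or 3 or R1 replicate 2 or 3, Nefl was not called (adjusted p up to 0.173). Nefm lost its call without 3F replicate 3 or R1 replicate 2 (adjusted p up to 0.0767). The call of Ncam1 was lost without 3F replicate 1, 2 or 3 or R1 replicate 2 or 3 (adjusted p up to 0.238). None of the 18 trophoblast, 18 endothelial or 18 blood and immune genes was called, though the limits of 3 arrays a group apply. Single genes were called in the cardiac list (Ankrd1, 1.87 ± 0.47, 1 of 27), the mesoderm list (Foxc2, 1.39 ± 0.33, 1 of 18) and the endoderm list (Amn, lower, -1.30 ± 0.37, 1 of 20). Without 3F replicate 1 or 3 or R1 replicate 2 or 3, Ankrd1 was not called (adjusted p up to 0.104). Foxc2 lost its call without 3F replicate 1 or 3 or R1 replicate 2 or 3 (adjusted p up to 0.109). The call of Amn was lost without 3F replicate 1 or 3 or R1 replicate 2 or 3 (adjusted p up to 0.186).

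**Figure D4:**
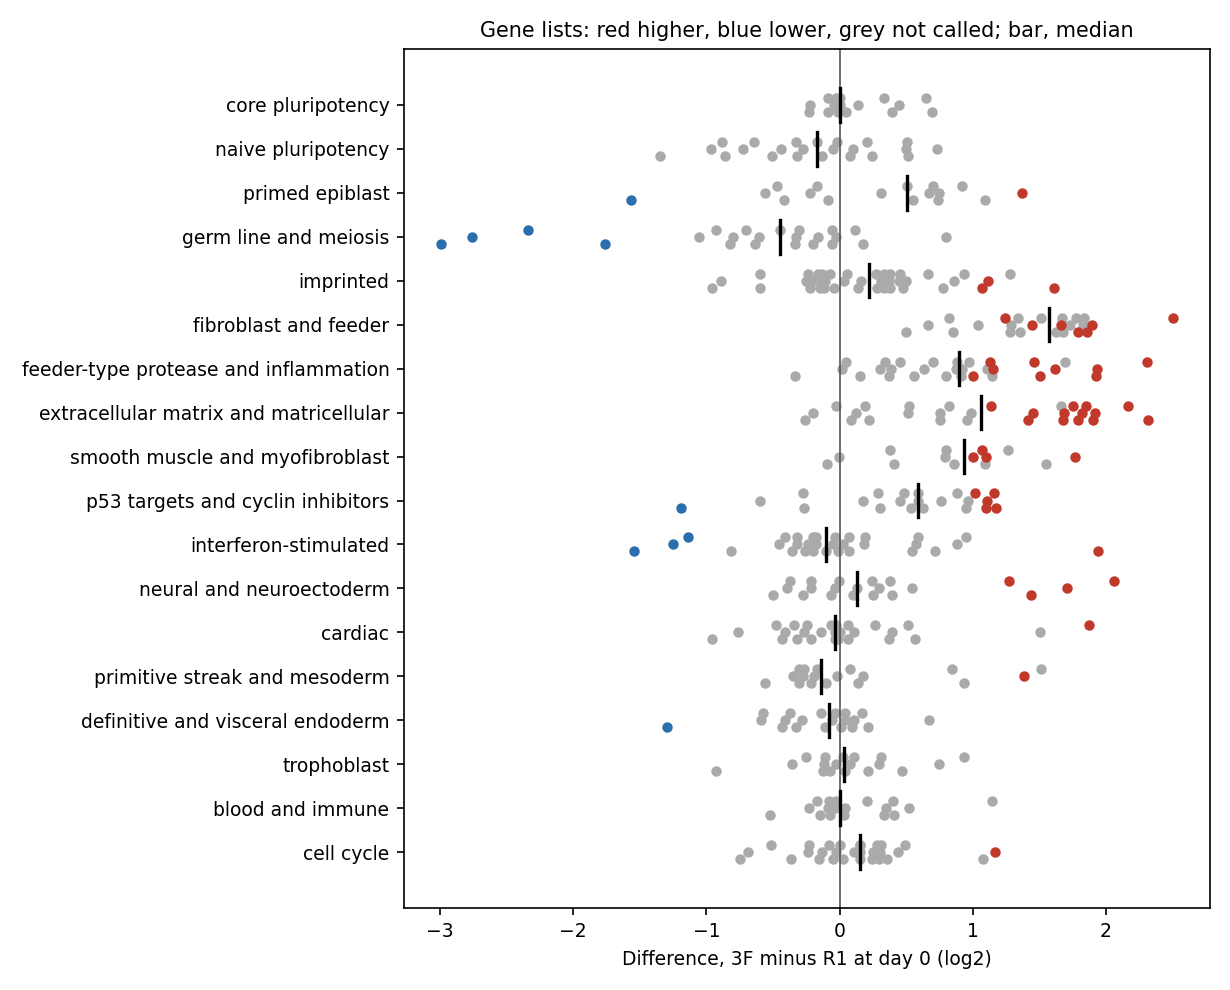
Difference between 3F and R1 at day 0 (log2) for every measured member of 18 gene lists, 1 point a gene, with red for called higher, blue for called lower, grey for not called and a bar at the list median. The fibroblast, protease and matrix lists have medians well to the right of 0 and the germ line list extends to the left, and the pluripotency lists hold no coloured point.

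Imprinted genes, expressed from 1 parental copy, numbered 40 on the arrays, of which 3 were higher and 0 lower (median 0.22), against 2.21% higher over all genes. Peg3, a paternally expressed zinc finger gene, had 12.70, 12.48 and 12.49 in 3F and 11.01, 10.54 and 11.27 in R1. Every 3F array lay above every R1 array, at 1.61 ± 0.44 (limma adjusted p = 0.0294). Without 3F replicate 1, 2 or 3 or R1 replicate 2 or 3, Peg3 was not called (adjusted p up to 0.175). H13 and Osbpl5 were higher at 1.07 ± 0.24 and 1.12 ± 0.33. H13 lost its call without 3F replicate 3 or R1 replicate 2 or 3 (adjusted p up to 0.0794). The call of Osbpl5 was lost without 3F replicate 1 or 3 or R1 replicate 2 or 3 (adjusted p up to 0.211). The maternally expressed RNAs Meg3 and Rian of the Dlk1 to Dio3 region are known to be silenced in some mouse iPS lines. Both gave signal in the arrays of both lines. These were bulk samples of cultures with feeder cells, so signal from stem cells and from feeder cells cannot be told apart. Meg3 had 9.87, 10.35 and 10.39 in 3F and 9.59, 10.56 and 11.09 in R1. Rian had 10.82, 11.00 and 11.22 in 3F and 10.05, 10.94 and 10.90 in R1. Neither was called, with 95% intervals of -1.14 to 0.72 and -0.21 to 0.98, and the groups overlapped.

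Of 22 p53 targets and cyclin inhibitors 5 were higher and 1 lower (median 0.59), against 2.21% and 0.879% of all genes. These counts were 1 and 0 with the RNA index as a covariate, 1 and 1 with quantile normalization, 2 and 1 with median centring, and 3 and 1 with averaged probe sets. Pmaip1 (Noxa), a BH3-only cell death protein, had 10.39, 10.0004 and 10.52 in 3F and 9.46, 8.97 and 8.94 in R1, without overlap. It differed by 1.18 ± 0.22 and was called in every fit that left out 1 array. Perp and Plk2 were higher at 1.16 ± 0.26 and 1.11 ± 0.21, the cyclin inhibitor Cdkn2b at 1.10 ± 0.26, and Gadd45a was lower at -1.19 ± 0.29. Without 3F replicate 3 or R1 replicate 2, Perp was not called (adjusted p up to 0.0613). Without 3F replicate 3, Plk2 differed by 0.99, under the 2-fold minimum. The call of Cdkn2b was lost without 3F replicate 3 or R1 replicate 2 (adjusted p up to 0.122). Without 3F replicate 1 or 3 or R1 replicate 2, Gadd45a was not called (adjusted p up to 0.157). Cdkn1a (p21), named after its values were seen, was higher at 1.01 ± 0.31 and was called again in 1 of the 6 fits that left out an array. Of 29 cell cycle genes 1 was higher, Ccnd1 (cyclin D1) at 1.17 ± 0.30. Ccnd1 lost its call without 3F replicate 1 or 3 or R1 replicate 2 or 3 (adjusted p up to 0.185).

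Sex chromosome genes gave no call in the list of 10. Xist, the RNA that silences an X chromosome, had 7.39, 7.74 and 8.14 in 3F and 7.59, 8.14 and 8.40 in R1. The Y-linked Eif2s3y had 11.26, 11.32 and 11.27 in 3F and 11.96, 12.22 and 11.98 in R1 and differed by -0.77 ± 0.56 (not called), although its arrays did not overlap. Of 617 X-linked genes 17 (2.76%) were higher and 9 (1.46%) lower, against 2.21% and 0.879% over all genes. Of 9 Y-linked genes 1, Uba1y, was lower at -1.62 ± 0.30 (named after its values were seen). Among genes above the 40th percentile of level, the median difference of an autosome ran from 0.01 (chromosome 17) to 0.14 (chromosome 18). Over all genes it ran from -0.03 (chromosome 8) to 0.02 (chromosome 15).

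The same lines were compared at days 5 and 11 of differentiation, on arrays that share no sample with day 0. At day 5, 68 genes (0.374%) were called between 3F and R1, and 37 of them differed in the same direction as at day 0, which is 54.4% of the day 5 genes and 6.58% of the day 0 genes. At day 11, 185 genes (1.02%) were called, 32 of them in the day 0 direction (17.3% of the day 11 genes and 5.69% of the day 0 genes) and 6 in the opposite direction. Fitting only the arrays of the groups compared gave 73 genes at day 5 (32 in the day 0 direction) and 10 at day 11 (5 in the day 0 direction, 1 opposite). Array weights gave 220 at day 5. The day 5 count was 41 without 3F day 5 replicate 3 and 39 without R1 day 5 replicate 2, and 52 to 91 without another array of that day. The day 11 count was 512 without 3F day 11 replicate 2, 360 without R1 day 11 replicate 3, 340 without 3F day 11 replicate 3, 146 without 3F day 11 replicate 1 and 115 without R1 day 11 replicate 1 or 2. The difference itself changed between day 0 and day 5 for 68 genes (0.374%), 49 of them called at day 0, and between day 0 and day 11 for 272 genes (1.5%), 115 of them called at day 0. These 2 counts rest on single arrays: the first was 158 without R1 day 0 replicate 1 and 29 without 3F day 0 replicate 3, and 31 to 41 without 3F day 0 replicate 1, R1 day 0 replicate 2, 3F day 5 replicate 2 or 3, or R1 day 5 replicate 2. The second was 1264 without 3F day 11 replicate 3, 1054 without R1 day 0 replicate 1 and 418 without R1 day 11 replicate 3, and 101 to 150 without 3F day 0 replicate 1 or 3, R1 day 0 replicate 2 or 3, 3F day 11 replicate 1 or R1 day 11 replicate 1 or 2. The SD of the log2 difference between 3F arrays of day 11 was 0.51 to 0.70. The genes higher in 3F at day 0 had a median difference of 0.19 at day 5 and 0.02 at day 11, and those lower had -0.36 and -0.43. The fibroblast list, with a median of 1.57 at day 0, had 0.15 at day 5 and -0.05 at day 11.

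Differences at all 3 days were called in 24 genes, 15 higher and 9 lower. Fitting only the arrays compared gave 4 such genes, all among the 24. The RNA index as a covariate gave 15 (14 of the 24), averaged probe sets 16 (14 of the 24), and leaving out a single array 19 to 26 (19 to 23 of the 24). Of the genes in this paragraph, those outside the naming rule were chosen after their values were seen. Gbp2b averaged 4.39 ± 0.25 in 3F and 8.21 ± 1.64 in R1 at day 5 and 4.46 ± 0.33 in 3F and 8.49 ± 0.27 in R1 at day 11, differences of -3.81 and -4.03. Bcat2 differed by -2.70 and -2.61 at those days. Rpgrip1 averaged 11.65 ± 0.13 in 3F and 8.68 ± 0.20 in R1 at day 5 and 10.20 ± 0.23 in 3F and 7.55 ± 0.26 in R1 at day 11. The sign of the 24 genes is the same at all 3 days by the rule that picked them, and is no separate result. The later arrays held embryoid bodies, the aggregates in which the cells differentiated. Slc1a5, Zfp874a and Tmem242 were also among the 24, as were the meiotic cohesin Stag3 (-1.68, -1.79 and -1.01 at days 0, 5 and 11) and the germ granule protein Rnf17 (-1.45, -1.55 and -1.56). The ribonuclease Ang was higher by 1.24, 2.16 and 3.6 at days 0, 5 and 11, and the mitochondrial leucyl-tRNA synthetase Lars2 by 1.53, 1.56 and 1.05.

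For 10 of the 30 genes with the largest changes the difference between the lines changed both by day 5 and by day 11. The 30 were picked by their day 0 difference, which also enters each change, so smaller later differences are favoured by the choice. Dpys averaged 4.82 ± 0.25 in 3F and 5.28 ± 0.57 in R1 at day 5, when the lines no longer differed beyond the threshold, a difference of -0.46 ± 0.28. Aass averaged 4.33 ± 0.19 in 3F and 5.35 ± 0.66 in R1 at day 5 and Khdc3 5.83 ± 0.11 in 3F and 5.88 ± 0.12 in R1. Cdc42ep2 averaged 7.82 ± 0.40 in 3F and 7.0 ± 0.28 in R1 at day 5. Rhox6 differed by 0.11 ± 0.36 at day 5 and was lower again at day 11, at -2.40 ± 0.36. It averaged 7.5 ± 0.99 in 3F and 9.90 ± 0.57 in R1 at day 11.

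**Figure D5:**
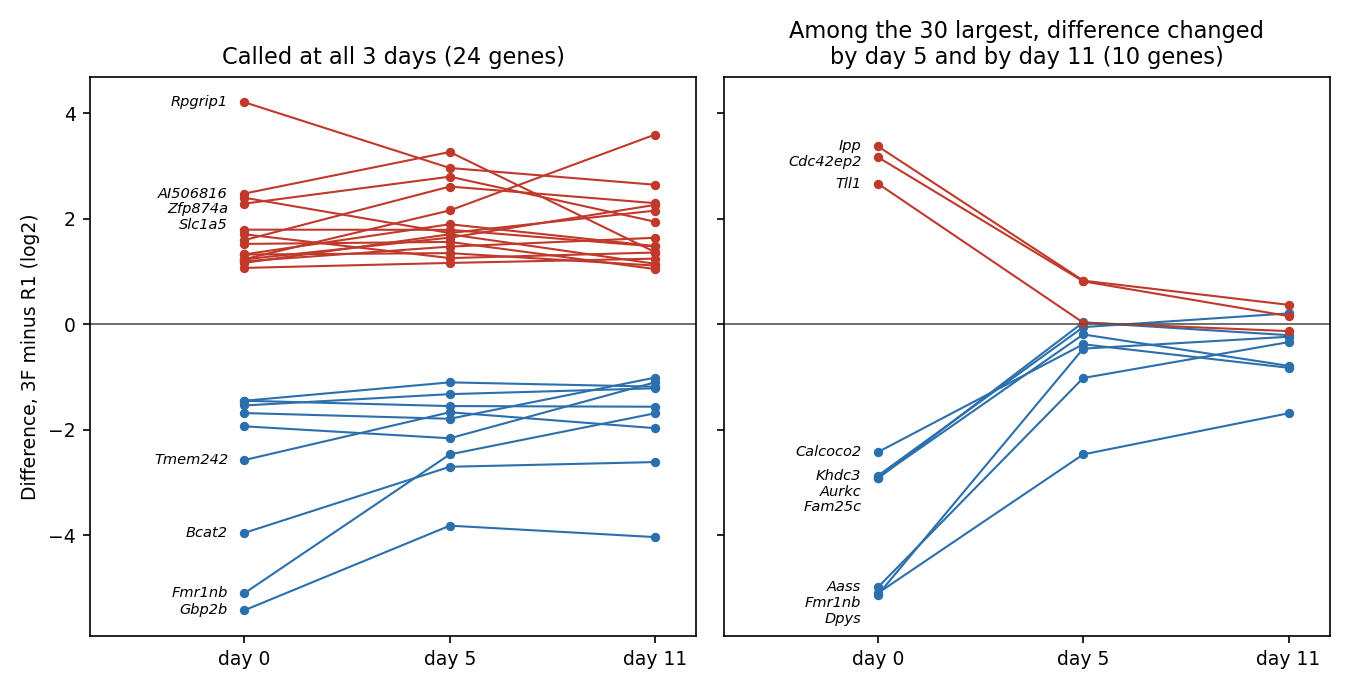
Difference between 3F and R1 (log2) at days 0, 5 and 11 for the 24 genes called at all 3 days (left panel) and for the 10 of the 30 largest day 0 changes whose difference changed both by day 5 and by day 11 (right panel). Red lines are higher and blue lines lower in 3F at day 0. The right panel holds genes picked for a large day 0 difference that later changed, so that its lines run towards 0 follows largely from this choice. Fmr1nb is in both panels.

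The second iPS line, 4F, is given beside both lines for some of the largest changes. No rule set which genes were taken, so they do not stand for the rest. The comparisons share arrays, so the values are only set side by side. At day 0, 360 genes (1.98%) were called between 3F and 4F and 204 (1.12%) between 4F and R1. Gbp2b averaged 4.78 ± 0.16 in 3F, 6.07 ± 0.76 in 4F and 10.19 ± 0.93 in R1. Fmr1nb averaged 6.16 ± 0.26 in 3F, 7.63 ± 0.28 in 4F and 11.25 ± 0.31 in R1. Rhox5 averaged 10.82 ± 0.29 in 3F, 11.22 ± 0.10 in 4F and 13.81 ± 0.11 in R1. For these genes 4F lay nearer to 3F than to R1. Bcat2 averaged 5.99 ± 0.25 in 3F, 9.53 ± 0.35 in 4F and 9.94 ± 0.41 in R1. Khdc3 averaged 6.54 ± 0.28 in 3F, 9.73 ± 0.34 in 4F and 9.41 ± 0.35 in R1. Cdc42ep2 averaged 9.995 ± 0.15 in 3F, 6.90 ± 0.15 in 4F and 6.82 ± 0.09 in R1. In these 4F lay beside R1, with 4F minus R1 differences of -0.41, 0.32 and 0.07, none called, and 3F minus 4F differences of -3.54, -3.19 and 3.10, all called. Rpgrip1 lay between, at 12.05 ± 0.19 in 3F, 9.87 ± 0.70 in 4F and 7.84 ± 0.33 in R1.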

How the data were processed

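The deposited series table holds log2 values, which the submitters' processing notes credit to RMA with no version given. The log base was taken from their range (3.0 to 15.67), and they were used as the authors deposited them. Labels' protocols give total RNA, and biotin-labelled cRNA. Of 45101 probe sets, 34945 had 1 gene symbol in the array annotation, 932 several and 9160 none (64 controls were left out). Each of 18193 genes was represented by the probe set whose mean signal across the series was highest. Symbols were matched to the RefSeq gene table by ID for 34741 probe sets, and 0 changed. Arrays have no read depth, and their number limits the precision.

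In limma 3.58.1 (R 4.3.3) 1 mean per group was fitted over all 27 arrays, with 18 residual degrees of freedom, and contrasts were moderated by eBayes. Adjusted p values follow Benjamini and Hochberg across the 18193 genes. On simulated data for 3F against R1 at day 0 (18193 genes) true log2 differences of 1.25, 1.5, 2 and 3 led to calls for 41, 46, 49 and 50 of 50 genes, and 1 of 17993 unchanged genes was called. The simulated noise was normal and independent for each gene and array. It held no shift shared by the genes of an array, so these rates do not carry over to data with arrays that stand apart. The text names the 15 largest rises and 15 largest falls among called genes without overlap (2 provisional names among the rises were passed over), up to 5 list members with the largest changes, 38 measured genes of 42 fixed ones, and the 5 largest changes of the difference in each direction at days 5 and 11. The comparison, the 45 gene lists and the tests were chosen with earlier results of these data known. Same-number arrays of 3F and R1 had residual correlations of -0.01, 0.19 and 0.12, and arrays of different numbers -0.19 to 0.04. The labels do not say what a number stands for, and the numbers were not taken as pairs in the main fit. Fits with the number as a block are given further on. The alternatives comprised 17 settings and single left-out arrays of days 0, 5 and 11. Tables and figures used Python 3.11.15, pandas 2.3.3, numpy 2.4.6 and matplotlib 3.10.9.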

Additional observations from a re-analysis of the deposited data

Results flagged for a closer look

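For the genes that follow, the difference between 3F and R1 itself changed by day 5 or day 11 of differentiation, by the limma test of that change with Benjamini-Hochberg adjustment and at least 2-fold. Values are the later difference minus the day 0 difference on the log2 scale. A positive value for a gene lower in 3F at day 0, or a negative one for a gene higher, means that the later difference was less extreme or of the opposite sign.

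By day 5 the change was 4.67 for Dpys, 3.97 for Aass, 2.96 for Fam25c, 2.87 for Rhox6, 2.82 for Khdc3, 2.71 for Aurkc, 2.63 for Fmr1nb and 2.04 for Calcoco2, all lower in 3F at day 0. It was -2.64 for Tll1, -2.55 for Ipp, -2.46 for Ccdc141, -2.35 for Cdc42ep2 and -2.34 for the splicing regulator Mbnl1, all higher in 3F at day 0.

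By day 11 the change was 4.89 for Dpys, 4.65 for Aass, 3.41 for Fmr1nb, 3.08 for Khdc3, 2.72 for Fam25c, 2.17 for Aard, 2.12 for Aurkc, 2.04 for Rhox5 and 1.6 for Calcoco2. It was -4.45 for the platelet chemokine Ppbp, -3.17 for Nefl, -3.01 for Cdc42ep2, -3.01 for Ipp, -3.0 for the surface glycoprotein Cd200, -2.98 for Olr1, -2.80 for Tll1, -2.40 for Grb14, -2.40 for H2-Q10, -2.37 for Csf1 and -2.08 for Ndrg1.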

How the results depend on the processing

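Called genes are given as higher and lower in 3F at day 0 (402 and 160), then as differences changed by day 5 (68) and by day 11 (272). An adjusted p under 0.01 gave 165, 95, 25 and 68. Testing against 1.2-fold gave 157, 100, 26 and 85. A 3-fold minimum gave 89, 46, 37 and 124, and a 1.5-fold minimum 792 higher and 368 lower. Array weights gave 852, 306, 808 and 778, and the RNA index as a covariate 114, 79, 447 and 728. All probe sets gave 638 higher and 416 changed by day 11, and the mean of probe sets 204 higher. Fitting only the arrays compared gave 172 changed by day 5 and 80 by day 11. Leaving out single arrays gave 114 to 867, 79 to 312, 29 to 158 and 101 to 1264. The cause was not tested. The labels give both lines replicate numbers 1 to 3. With the number as a replicate block, 461 genes were higher and 164 lower over all arrays, and 501 and 185 over the 6 arrays. Over the arrays of the 4 groups compared, the block gave 196 differences changed by day 5 and 63 by day 11. The labels name nothing that same-number arrays share beyond the number. The 93 genes of the naming rule called at day 0 kept their sign under every alternative run that gives 1 value a gene. Of the 30 genes with the largest changes, those that lost a call were Klhl4, Pdgfrb and Thbs1 (index covariate, left-out arrays) and Rpgrip1 and Ccdc141 (mean of probe sets). Signals near the lower end of the scale limit the falls, since background sets the floor there.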

Other observations

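The metabolic and chromatin lists not described above held 0 to 3 called genes each. Over all genes 3.09% were called, 2.21% higher and 0.879% lower. Of 28 measured genes of the mitochondrial respiratory chain 0 were higher and 1 lower (median -0.15): Cox7a1, a subunit isoform of cytochrome c oxidase, had 6.13, 6.10 and 5.73 in 3F and 6.82, 8.35 and 8.48 in R1 and differed by -1.90 ± 0.42. The call of Cox7a1 was lost without 3F replicate 3 or R1 replicate 2 or 3 (adjusted p up to 0.0852). None of 21 fatty acid oxidation genes (median -0.14), 19 sterol synthesis genes (-0.08) or 20 Notch genes (0.06) was called. Of 29 glutathione and xenobiotic enzymes 1 was higher and 2 lower (median 0.04). Aldh1a2, which makes retinoic acid, was higher at 1.02 ± 0.31 and Gsta3 lower at -1.04 ± 0.22, and these were called again in 1 and 3 of the 6 fits that left out an array. Gstt1, a glutathione transferase, had 7.19, 7.44 and 6.88 in 3F and 8.70, 9.21 and 8.77 in R1, every 3F array below every R1 array, at -1.73 ± 0.22 (limma adjusted p = 4.57e-05), and was called in every fit that left out 1 array. Of 25 Polycomb and remodelling genes 1 was higher (median 0.17): Kdm2b, which brings a variant Polycomb complex to CG-rich DNA, had 12.53, 12.73 and 12.29 in 3F and 11.69, 11.17 and 11.35 in R1 and differed by 1.11 ± 0.18. Without R1 replicate 2, Kdm2b differed by 0.9952, under the 2-fold minimum. Of 18 DNA methylation and Tet genes 0 were higher and 1, Gadd45a, lower (median 0.04).

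The lists that follow stand against 2.21% higher and 0.879% lower over all genes. In 19 genes of the Klf and Myc families 1, Mxd4, was higher at 1.13 ± 0.30 (median 0.21). Mxd4 lost its call without 3F replicate 1 or 3 or R1 replicate 2 or 3 (adjusted p up to 0.195). In 31 Hox genes 1, Hoxd13, was higher at 1.07 ± 0.25 (median 0.12). The call of Hoxd13 was lost without 3F replicate 3 or R1 replicate 2 or 3 (adjusted p up to 0.106). Of 9 measured histone genes 1, the linker histone H1f2, was higher at 1.32 ± 0.28 (median 0.14). Without 3F replicate 3, H1f2 had an adjusted p of 0.0667 and was not called. None of 6 measured genes of the 2-cell-like state (median -0.08) or 22 immediate early and stress genes (0.58) was called. Of 20 epithelial and keratin genes 1, Krt17, was higher at 1.2 ± 0.27 (median 0.21). Krt17 lost its call without 3F replicate 1 or R1 replicate 2 or 3 (adjusted p up to 0.076). Of 14 skeletal muscle genes Acta1 was higher at 1.08 ± 0.28 and Mylpf lower at -1.21 ± 0.27 (median -0.08). The call of Acta1 was lost without 3F replicate 1 or 3 or R1 replicate 2 (adjusted p up to 0.155). Without 3F replicate 3 or R1 replicate 2 or 3, Mylpf was not called (adjusted p up to 0.0753). Of 16 parietal endoderm genes 2, Col4a1 and Col4a2, were higher (median 0.79), which the matrix list also holds.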
